A study of Mus musculus with 3 samples.

Results

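The transcripts described here encode HuR and 9 subunits of the translation initiation factor eIF3, which have been described as partners of the PIWI protein MIWI in translation. They were taken by gene symbol from a fixed list (Elavl1 for HuR and Eif3a to Eif3i for the eIF3 subunits), and all 10 were among the 17946 genes measured. RNA sequencing was done on round spermatids, the haploid male germ cells that follow meiosis. The cells were separated by fluorescence-activated sorting on a DNA dye from testes of male C57BL/6 mice aged 28 days. A wild-type, a MiwiΔIns and a MiwiR371W library were made, the latter 2 from mice carrying the named allele of Miwi (Piwil1), so each genotype stands on 1 library: replicates are lacking throughout and nothing below was tested. The sources used here do not state the number of animals behind a library or the zygosity of the alleles.

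eIF3 is the largest of the initiation factors: it binds the small ribosomal subunit, keeps it apart from the large one and connects it, through eIF4G, to the capped mRNA. HuR is an RNA-binding protein that recognises AU-rich elements in 3′ UTRs and affects the stability and translation of the mRNAs that carry them. Round spermatids store many mRNAs for later translation, and MIWI loaded with piRNAs, small germline RNAs, has been reported to bring HuR and eIF3 subunits, eIF3f among them, to target mRNAs. The values below are transcript levels. They say nothing of the amount of these proteins or of their binding to MIWI.

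AU-rich pentamers, the core letters of the element that HuR binds, are shown first because the longest annotated 3′ UTR of HuR itself holds many. The longest annotated 3′ UTR of Elavl1 was 4218 nt long and held 17 AUUUA pentamers (ATTTA in DNA letters, counted on the transcribed strand with overlaps allowed). Elavl1 has 2 annotated transcripts, of 2317 and 5743 nt, and the shorter one cannot hold this 3′ UTR. Which of them the measured level came from was not tested. Of 14874 measured genes with an annotated 3′ UTR, 1.48% held as many, and 11.1% held them as densely as the 4.03 per kb of Elavl1. Over all of these genes the median count was 1 pentamer, and 67.2% held at least 1. Their median 3′ UTR length was 1059.5 nt and their median density 1.24 per kb. Eif3a held 2 in 964 nt and Eif3c held 2 in 543 nt, the latter at 3.68 per kb nearly as dense as Elavl1, whereas the other 7 eIF3 members held 0. Of the eIF3 subunits outside the list, Eif3j1 held 6 and Eif3j2 held 5, and Eif3k, Eif3l and Eif3m held 0. The 30-base windows below are from the mouse genome GRCm38 with GENCODE M21 gene models, written 5′ to 3′ on the minus strand, with pentamers in capitals. The first lies at chr8:4285777-4285806, the second at chr8:4285746-4285775, the third at chr19:60761614-60761643 and the fourth at chr7:126546899-126546928. Both Elavl1 windows, with 5 and 3 pentamers, most of them overlapping, lie near the distal end of its longest 3′ UTR. The Eif3a and Eif3c windows hold a single pentamer each. A match of letters is no evidence of binding.
Elavl1, first window: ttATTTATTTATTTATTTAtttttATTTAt
Elavl1, second window: tgtttgtttATTTATTTATTTAttacttgt
Eif3a: taccttcttaggtATTTActattaactaca
Eif3c: agatctgttgagaATTTAtatagttgcttg

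The libraries carried the profile of their labelled cell type. All 13 round spermatid markers (such as Acrv1, Tnp1 and Prm1) had values of at least 5 in every library, and their summed level was 18734 in the wild-type library, 25241 in MiwiΔIns and 20574 in MiwiR371W. By the median marker the order differed, at 460.21, 603.19 and 331.43, and 7 of the 13 were above wild type in MiwiR371W and 9 in MiwiΔIns. Summed levels of 13 meiotic markers were 1532, 1333 and 1491, so transcripts named for meiotic cells were present in each library. Hspa2, at 957.92, 663.94 and 854.68, was the largest part of each sum. Of the 13, 8 were above wild type in MiwiΔIns and 10 in MiwiR371W, with median log2 ratios of 0.06 and 0.13. Markers of Sertoli cells, 9 of 12 measured, summed to 41.8, 28.9 and 32.2, highest in wild type. Of these 9, 1 was above wild type in MiwiΔIns and 2 in MiwiR371W. Markers of spermatogonia, 9 of 11 measured, summed to between 19.0 and 21.1. The 8 for peritubular and endothelial cells summed to 9.67, 9.06 and 17.9, highest in MiwiR371W. Those of Leydig cells, 5 of 7 measured, summed to 3.85, 7.49 and 6.44, lowest in wild type. Those of macrophages, 6 of 8 measured, summed to 4.75, 6.18 and 6.04, also lowest in wild type. Of 6 erythroid markers 1 was measured, at 0.23 to 0.41. In MiwiR371W 7 of the 8 peritubular and endothelial markers were higher than in wild type, with a median log2 ratio of 0.40, and the smooth muscle actin gene Acta2, at 1.01, 2.17 and 5.53, was the single marker that differed 2-fold and reached 5. The part of these cells in any value below was not tested. Piwil1, the mutated gene, was at 20.28 in the wild-type library, 23.2 in MiwiΔIns and 23.45 in MiwiR371W. Its log2 difference from wild type was 0.19 (counting SD 0.066) in MiwiΔIns and 0.20 (counting SD 0.071) in MiwiR371W. Both exceeded counting error, but 55.7% and 59.5% of genes that reached 5 in the higher library lay at least as far from 0. These levels say nothing of the allele that was read. Values are length-normalised transcript levels of a unit the sources used here do not name, and their spacing gave about 13.1, 14.3 and 10.4 fragments per value unit and kb. All counting SDs given here rest on these estimates and cover counting error only. In bulk RNA, fewer cells of a type and less RNA per cell cannot be told apart.

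Elavl1 was the least abundant of the 10 transcripts in each library, and it was higher in both mutant libraries than in wild type. Its level was 9.05 in the wild-type library, 12.23 in MiwiΔIns and 11.21 in MiwiR371W, about 447, 660 and 441 fragments. Wild type was the lowest of the 3, and the mutants lay closer to each other than to it. On the log2 scale with a pseudocount of 1, used for all ratios between libraries, the difference from wild type was 0.40 (counting SD 0.088) in MiwiΔIns and 0.28 (counting SD 0.097) in MiwiR371W. Both exceeded counting error, but among genes that reached 5 in the higher of the libraries compared, 23.1% lay at least as far from 0 in MiwiΔIns, and 46.1% did in MiwiR371W. MiwiR371W was lower than MiwiΔIns by little more than the counting SD, at a log2 difference of -0.12 (counting SD 0.089). Among all genes Elavl1 ranked 6657th, 5973rd and 6191st. Elavl1 was also set against the median of the 9 eIF3 transcripts of its own library. This ratio was taken without a pseudocount, and no scaling of libraries can move it. Elavl1 stood at a log2 level of -3.57 in the wild-type library, -3.23 in MiwiΔIns and -3.22 in MiwiR371W. The median transcript was Eif3e in MiwiΔIns and Eif3d in the others. Relative to the geometric mean of the 9 instead, the levels were -3.70, -3.26 and -3.37.

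A limit of the Elavl1 values is its neighbour on chromosome 8. Elavl1 lies at chr8:4285382-4325413 on the minus strand, and its exons share 204 bases with those of the chemokine gene Ccl25 on the other strand. Ccl25 was at 3.38, 7.54 and 6.2, so it was also higher in both mutants, by 0.96 and 0.72 on the log2 scale. The sources used here do not say whether the libraries kept the strand, and without strand, reads from the shared bases cannot be told apart. Removing the trend of the ratios with GC content and length left Elavl1 at 0.34 in MiwiΔIns and moved it to 0.17 in MiwiR371W, which is less than 1.96 counting SDs from 0.

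**Figure D1:**
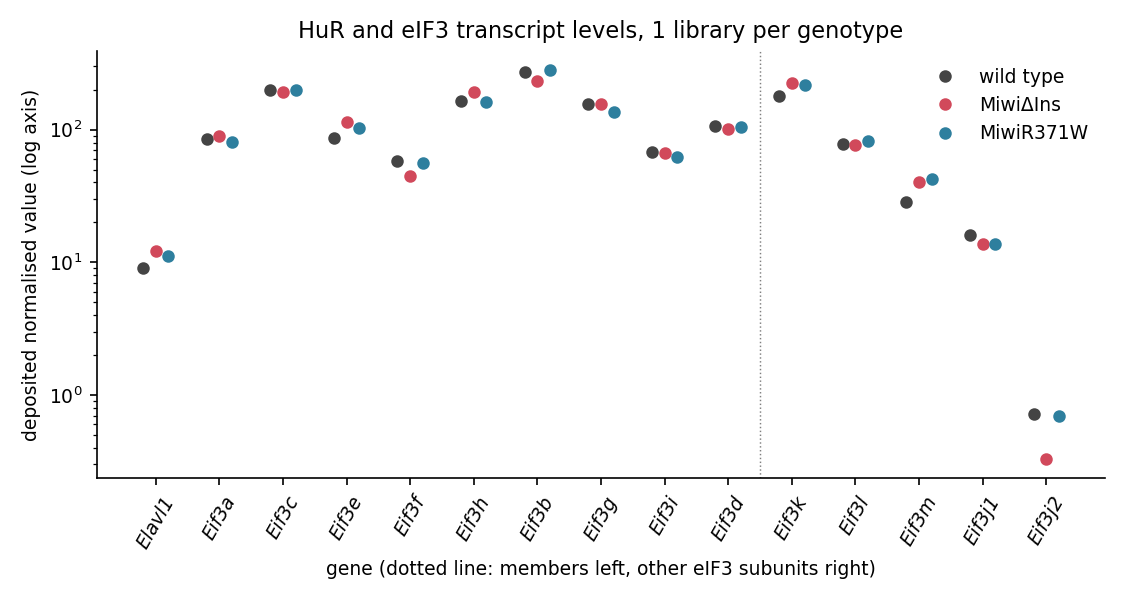
Deposited values on a log axis for the 10 members and, right of the dotted line, the other measured eIF3 subunits, 1 point per library in black for wild type, red for MiwiΔIns and blue for MiwiR371W. The 9 eIF3 members lie between 44.74 and 280.83 in the 3 libraries, above Elavl1 at 9.05 to 12.23.

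The 9 eIF3 members were abundant and lay within about 5.22-fold of each other in each library. Their 9 values added up to 1198.3 in the wild-type library, 1193.8 in MiwiΔIns and 1181 in MiwiR371W, and the highest of them was 4.71, 5.22 and 4.99 times the lowest. Eif3b led in each library and Eif3f was the lowest of the 9. From top to bottom the wild-type order was Eif3b, Eif3c, Eif3h, Eif3g, Eif3d, Eif3e, Eif3a, Eif3i and Eif3f, followed by Elavl1. MiwiR371W had the same order, and in MiwiΔIns Eif3e stood above Eif3d. Neighbours less than 1.96 counting SDs apart were Eif3h and Eif3g as well as Eif3e and Eif3a in the wild-type library, Eif3c and Eif3h in MiwiΔIns, and Eif3d and Eif3e in MiwiR371W.

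Eif3a, Eif3c, Eif3e, Eif3f and Eif3h belong to the PCI and MPN domain core, the part of eIF3 that sits on the small ribosomal subunit. Summed over these 5 the level was 593.9 in the wild-type library, 634 in MiwiΔIns and 597.97 in MiwiR371W. The scaffold subunit Eif3a (chr19:60761117-60790658, minus strand) was at 85.12, 89.02 and 81.23, with log2 differences from wild type of 0.06 (counting SD 0.027) and -0.07 (counting SD 0.030). Eif3c (chr7:126546455-126566411, minus strand), a core subunit that in yeast contacts the start-codon factors eIF1 and eIF5, was at 199.95, 193.93 and 197.85, with log2 differences of -0.04 and -0.02. Neither transcript was far from wild type in either mutant: at least 83.8% of genes lay as far or farther in each of these 4 ratios. Relative to the median eIF3 transcript, Eif3a stood at a log2 level of -0.33, -0.36 and -0.36.

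Of these 5 core members Eif3e and Eif3f lay farthest from wild type, in opposite directions and in the MiwiΔIns library. Eif3e (chr15:43250058-43282719, minus strand), also known as INT6, was at 86.67 in the wild-type library, 114.62 in MiwiΔIns and 102.34 in MiwiR371W. It was lowest in the wild-type library, as Elavl1 was, with log2 differences of 0.40 (counting SD 0.050) and 0.24 (counting SD 0.055), sizes reached by 22.7% and 53.1% of genes. Eif3f (chr7:108934417-108942951, plus strand), an MPN-domain subunit, was at 57.65 in the wild-type library, 44.74 in MiwiΔIns and 56.24 in MiwiR371W. Here MiwiΔIns was the low library and the others differed by less than counting error. The log2 difference was -0.36 (counting SD 0.052) in MiwiΔIns, a size reached by 27.3% of genes, against -0.04 (counting SD 0.053) in MiwiR371W. MiwiR371W exceeded MiwiΔIns by 0.32 (counting SD 0.055), a size that 45.2% of genes reached in that comparison. Relative to the median eIF3 transcript, Eif3f stood at -0.90, -1.36 and -0.89, the widest range of the 9 on that scale. The median transcript was Eif3e in MiwiΔIns and Eif3d in the others, and relative to the geometric mean of the 9 instead, the range was 0.36 for Eif3f and widest, at 0.41, for Eif3e.

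Eif3h (chr15:51786558-51865523, minus strand), the other MPN-domain subunit, was at 164.51 in the wild-type library, 191.69 in MiwiΔIns and 160.31 in MiwiR371W. MiwiΔIns was the high library. The log2 difference from wild type was 0.22 (counting SD 0.041) in MiwiΔIns and -0.04 (counting SD 0.046) in MiwiR371W, the latter within counting error, and MiwiR371W was below MiwiΔIns at -0.26 (counting SD 0.044). In MiwiΔIns, 48.8% of genes lay as far from 0. With libraries scaled to the same sum of values, Eif3h in MiwiΔIns was at 0.11.

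Eif3b, Eif3g and Eif3i form the peripheral group, which lies towards the mRNA channel of the small subunit. Their summed level was 497.21 in the wild-type library, 458.1 in MiwiΔIns and 478.89 in MiwiR371W. Eif3b (chr5:140419328-140443360, plus strand), a WD40 and RNA-recognition subunit on which the other two assemble, was at 271.56, 233.48 and 280.83, so MiwiΔIns was again the low library. Its log2 differences were -0.22 (counting SD 0.021) and 0.05 (counting SD 0.022), and 0.27 (counting SD 0.022) between the mutants. Eif3g (chr9:20894349-20898623, minus strand), which has an RNA-recognition motif, was at 157.32, 157.45 and 135.57. Its low library was MiwiR371W, at a log2 difference of -0.21 (counting SD 0.054) with 57.2% of genes as far, whereas MiwiΔIns was at 0.00 (counting SD 0.048). Eif3i (chr4:129591960-129600648, minus strand), a WD40 propeller, was at 68.33, 67.17 and 62.49. Its log2 differences of -0.02 (counting SD 0.072) and -0.13 (counting SD 0.080) were within, or less than 2 times, the counting SD.

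Eif3d (chr15:77958998-77970813, minus strand), the subunit that can bind the mRNA cap, was at 107.24 in the wild-type library, 101.73 in MiwiΔIns and 104.16 in MiwiR371W. The 3 values lay close together, with log2 differences of -0.08 (counting SD 0.042) and -0.04 (counting SD 0.045) from wild type. Its exons share 2151 bases with the antisense gene Gm17638, which was itself at 0.52, 0.19 and 0.28, a low level beside that of Eif3d, with the same limit on strand.

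**Figure D2:**
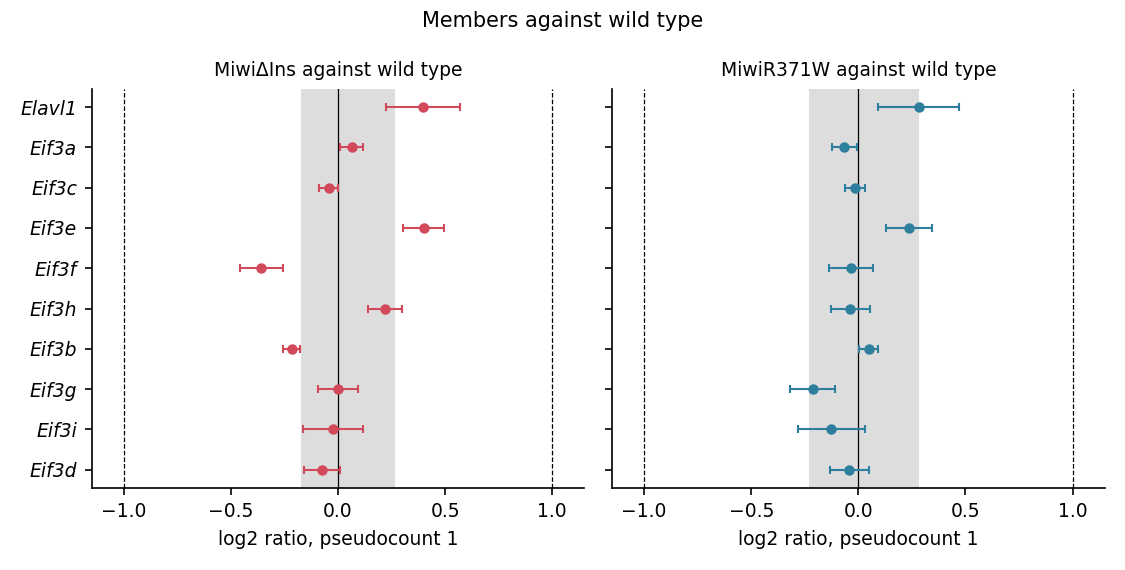
Log2 ratio to wild type (x axis, pseudocount 1) of each member in MiwiΔIns (left) and MiwiR371W (right), with bars of 1.96 counting SDs, which cover counting error only; the grey band spans the middle 50% of all genes that reach 5 in the higher library and the dashed lines mark 2-fold. No member reaches a dashed line, and in MiwiΔIns Elavl1 at 0.40, Eif3e at 0.40, Eif3f at -0.36 and Eif3b at -0.22 lie outside the band, as does Elavl1 at 0.28, narrowly, in MiwiR371W.

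Counted against a 2-fold rule with a value of at least 5 in the higher library, 0 of the 10 members passed in MiwiΔIns against wild type, where 2.06 percent of 8550 genes passed, and 0 passed in MiwiR371W, where 3.30 percent of 8719 genes passed. Between the mutants 0 members passed beside 4.48 percent of 8744 genes. At 1.5-fold the count of members was also 0 in each comparison, beside 9.67 percent of genes in MiwiΔIns, 15.8 percent in MiwiR371W and 19.2 percent between the mutants. At 2-fold the share of members was near that of all genes, which is no result about the members. At 1.25-fold, a limit chosen after the values were seen, Elavl1 and Eif3e passed as higher and Eif3f as lower in MiwiΔIns, 3 of 10 beside 32.1 percent of all genes. In MiwiR371W 0 of 10 passed beside 40.5 percent, and between the mutants 1 of 10 (Eif3f, higher in MiwiR371W) passed beside 45.5 percent. The share of members was near that of all genes in MiwiΔIns and below it in the comparisons with MiwiR371W, and the difference from all genes was not tested.

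The members were centred near 0 in each comparison. Their median log2 ratio was -0.01 in MiwiΔIns against wild type, beside 0.04 for all genes, with 5 of 10 above 0. In MiwiR371W it was -0.04 beside 0.03, with 3 of 10 above 0. Both comparisons use the same wild-type library, so their values are not independent of each other. Between the mutants the median was -0.11 beside 0.01. The median distance from 0, whatever the sign, was 0.15 for the members and 0.21 for all genes in MiwiΔIns, 0.06 and 0.26 in MiwiR371W, and 0.15 and 0.29 between the mutants. Abundant genes have less counting error than the scarce genes in the comparison set, and the part of abundance in these shorter distances was not tested.

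**Figure D3:**
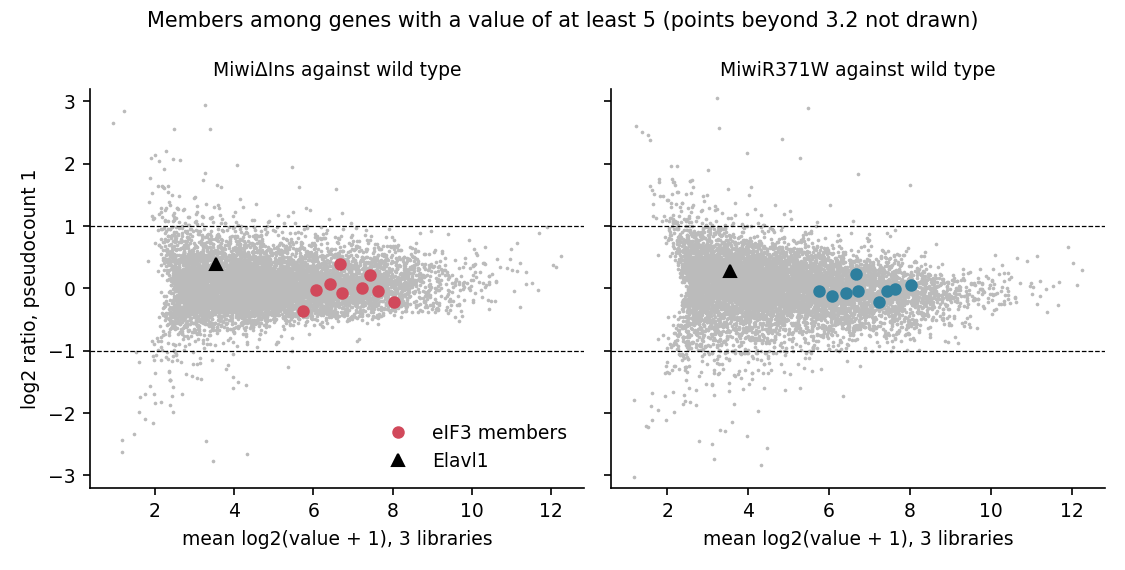
Log2 ratio to wild type (y axis) against mean log2(value + 1) over the 3 libraries (x axis) for all genes that reach 5 in the higher library (grey), the 9 eIF3 members (coloured circles) and Elavl1 (black triangle), in MiwiΔIns (left) and MiwiR371W (right); dashed lines mark 2-fold. The eIF3 members lie among the abundant genes and within the cloud, between -0.36 and 0.40 on the left and between -0.21 and 0.24 on the right.

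The MiwiΔIns ratios moved with the base composition of the transcripts. Over 8450 genes, which do not count as replicates, the Spearman correlation of the log2 ratio to wild type with transcript GC content was -0.43, compared with -0.17 in MiwiR371W and 0.16 between the mutants. Eif3e has the lowest GC content of the 10 members, at 40.3%, and Eif3b the highest, at 55.9%. With the trend with GC content and length removed, Eif3e in MiwiΔIns was at 0.19 and Eif3b at -0.04, while Eif3f stayed at -0.36. In MiwiR371W the same step gave 0.18 for Eif3e, -0.11 for Eif3g and -0.19 for Eif3a. Over 7 alternative scalings, pseudocounts and corrections, Elavl1 and Eif3e stayed above 0 in both mutants and Eif3f stayed below 0 in MiwiΔIns, from -0.46 to -0.33. The sign changed for Eif3a, Eif3d and Eif3g in MiwiΔIns and for Eif3a, Eif3c, Eif3d, Eif3f and Eif3h in MiwiR371W, none of which passed 1.25-fold as deposited. Between the mutants it changed for Elavl1, Eif3a, Eif3c, Eif3e and Eif3i.

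**Figure D4:**
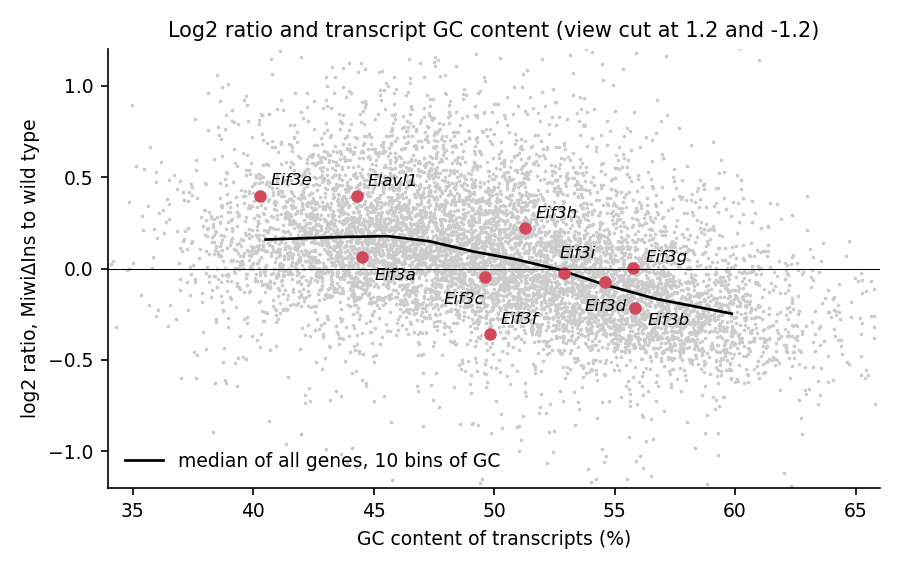
Log2 ratio of MiwiΔIns to wild type (y axis) against transcript GC content in percent (x axis) for all genes that reach 5 in the higher library (grey), with the median in 10 bins of GC content (line) and the 10 members (red). The line lies above 0 at low and below 0 at high GC content; Eif3e at 40.3% lies above it by less than its ratio of 0.40, Eif3b at 55.9% lies close to it, and Eif3f at -0.36 lies below it.

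Some members have copies of similar sequence among the other annotated transcripts. Copies of at least 90% identity over at least 200 nt were found for Eif3c, Eif3d, Eif3e, Eif3f, Eif3h and Eif3i, and none for Elavl1, Eif3a, Eif3b or Eif3g. Some matches were short: that of Eif3f was 91.6% identical over 214 nt. Those of Eif3d were Gm17031, 90.7% identical over 364 nt, and Gm17638, the antisense gene that overlaps Eif3d itself. Other matches were long, and these copies had no value. For Eif3e they were Eif3s6-ps2 (96.0% over 1338 nt), Eif3s6-ps3 (91.5% over 1358 nt) and Eif3s6-ps4 (90.2% over 1402 nt). For Eif3h it was AC122253.2 (96.3% over 1061 nt) and for Eif3i 4930503E24Rik (90.8% over 941 nt). The part of copies without a value in these levels was not tested. The copies with values were low. Eif3s6-ps1, 96.6% identical to Eif3e over 464 nt, was at 1.63, 2.59 and 2.27. Gm11224, 94.6% identical to Eif3c over 1113 nt, was at 0.09, 0.25 and 0.47. Eif3s6-ps1 was higher in both mutants, as Eif3e was, and reads shared by the pair cannot be told apart in the deposited values.

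Of the remaining eIF3 subunits, Eif3k, Eif3l and Eif3m of the core, and Eif3j1 and Eif3j2, which encode the loosely bound eIF3j, 0 of 5 passed the 2-fold rule in any comparison. Their median log2 ratio was -0.02 in MiwiΔIns and 0.07 in MiwiR371W. Eif3m, the least abundant core subunit, was at 28.59 in the wild-type library, 40.06 in MiwiΔIns and 42.23 in MiwiR371W. It was lowest in the wild-type library, with log2 differences of 0.47 (counting SD 0.107) and 0.55 (counting SD 0.113), sizes reached by 16.1% and 18.3% of genes. Eif3k showed the same order of wild type below both mutants, at 180.39, 225.61 and 218.54, with log2 differences of 0.32 and 0.28. Eif3l was at 77.95, 76.99 and 81.72, and Eif3j1 at 16.11, 13.87 and 13.76, the latter with wild type as the high library at log2 differences of -0.20 and -0.21. Eif3j2 was below 1 in each library, at 0.72, 0.33 and 0.7.

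HuR has neuronal relatives in Elavl2, Elavl3 and Elavl4, and all 3 were scarce. Elavl2 was at 0.26, 0.14 and 0.3, and Elavl3 at 0.24, 0.13 and 0.12. Elavl4 was at 0.79 in the wild-type library, 0.32 in MiwiΔIns and 2.76 in MiwiR371W. MiwiR371W was the high library for Elavl4, at a log2 difference of 1.07 (counting SD 0.270) from wild type, but the value was under the minimum of 5 and was not counted. It was 1.68 with a pseudocount of 0.1 and 0.42 with a pseudocount of 5. Elavl1 had the highest length-normalised level of the family in each library.

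In the wider translation pathway, 3 listed genes passed the 2-fold rule in MiwiR371W against wild type, and 0 did in the other comparisons. Of all genes that reached 5 in the higher library, 3.30 percent passed in MiwiR371W against wild type. Whether the listed genes differ from all genes, or the comparisons from each other, was not tested. Among factors of start codon selection and subunit joining, 1 of 15 measured genes passed, and 14 of the 15 reached the minimum of 5. This was Eif2a, reported as an alternative carrier of initiator tRNA, at 2.92 in the wild-type library, 4.98 in MiwiΔIns and 7.58 in MiwiR371W, a log2 difference of 1.13 in the latter. Among eIF2B subunits and the kinases and phosphatases of eIF2 alpha, 1 of 11 passed, with 6 of the 11 at the minimum or above: Eif2ak1, the heme-regulated kinase, at 9.54, 13.44 and 20.12, with a log2 difference of 1.0. In the list of elongation and termination factors, 1 of 11 passed, with 9 of the 11 at the minimum or above: Eef2k, the kinase that inhibits elongation factor eEF2, at 13.23, 9.63 and 5.14, with a log2 difference of -1.21. In each of these genes MiwiΔIns lay between wild type and MiwiR371W. With a pseudocount of 5 none of the 3 passed, at 0.67, 0.79 and -0.85. Eif2ak1 also missed the rule with libraries scaled to the same median, at 0.98, and after removal of the GC and length trend, at 0.93. Other settings added a call: with a pseudocount of 0.1 or with the same upper quartile, 2 genes of the eIF2B and kinase list passed. Each of the 3 shares exon bases with a gene on the other strand, 72 with Serp1 for Eif2a, 487 with Aimp2 and 172 with Ankrd61 for Eif2ak1, and 101 with Gm15774 for Eef2k. Serp1 was at 40.74, 46.34 and 31.23, and Ankrd61 at 267.68, 295.82 and 185.63, each far above the gene it overlaps. Aimp2 was at 19.83, 19.54 and 21.24, and Gm15774 had no value. The limit on strand given for Elavl1 holds for these 3 genes too.

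The 2 factors of each list that were most abundant in the wild-type library did not pass the rule. Among the cap-binding complex eIF4F and its partners 0 of 14 measured genes passed in any comparison, although 1 did in MiwiR371W with a pseudocount of 0.1; of the 14, 12 reached the minimum. The list had a median of -0.12 in MiwiΔIns and 0.22 in MiwiR371W. Eif4g3, a scaffold of eIF4F, was at 243.61, 207.33 and 226.07, and Eif4g2, a scaffold that does not bind the cap-binding protein eIF4E, was at 218.97, 212.7 and 262.57. Eif5 was at 230.28, 224.45 and 269.07, and Eif1 at 211.47, 212.19 and 211.73; the list they belong to had medians of 0.11 and 0.13. Eif2b4 was at 66.75, 72.34 and 73.25 and Eif2b5 at 22.78, 22.91 and 28.73, both subunits of the exchange factor of eIF2, with list medians of 0.11 and 0.32. Eef1a1, which delivers aminoacyl-tRNA, was at 1105.4, 1453.2 and 1318.7, and Eef2, the translocation factor, at 876.07, 638.94 and 771.27, so the pair lay on opposite sides of wild type in both mutants. Their list had medians of 0.00 in both.

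HuR shares its AU-rich targets with other binding proteins, and 0 of 10 of these, 6 of which reached the minimum, passed the 2-fold rule in any comparison. With a pseudocount of 0.1, 1 passed in each mutant against wild type, and with the same upper quartile 1 did in MiwiR371W. Celf1, named after its values were seen, lay farthest from wild type among those reaching the minimum, at 2.53, 5.34 and 5.77, with log2 differences of 0.84 and 0.94. The list had a median log2 ratio of -0.04 in MiwiΔIns and 0.03 in MiwiR371W, with 5 of 10 genes above wild type in each mutant. Hnrnpd, also known as AUF1, was at 33.34 in the wild-type library, 28.83 in MiwiΔIns and 29.53 in MiwiR371W. Zfp36l1, which promotes decay of AU-rich mRNAs, was at 24.22, 18.99 and 20.54. Hnrnpd and Zfp36l1 were highest in wild type, the library in which Elavl1 and Celf1 were lowest. The log2 differences were -0.20 and -0.17 for Hnrnpd and -0.34 and -0.23 for Zfp36l1.

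The genes whose 3 values lay nearest to those of Elavl1, by Euclidean distance on log2(value + 1) among 13853 protein-coding genes, were Rala (distance 0.085), Vps51 (0.091) and Psmg1 (0.098). Rala, a small GTPase, was at 8.81, 11.56 and 11.06. Eif3e had the widest range of log2(value + 1) among the eIF3 members, and its nearest genes were Cops5 (distance 0.104), Ms4a13 (0.112) and Chmp2a (0.119). Cops5, a subunit of the COP9 signalosome, was at 92.85, 115.45 and 99.98. Nearness over 3 libraries, with so many genes searched, is a description of level and order only.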

How the data were processed

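Values of 1 library per genotype were used as deposited; per the labels, they come from mRNA-seq libraries of sorted round spermatids. Per the submitters' processing notes, reads were handled with Trim Galore 0.5.0, STAR and RSEM on mm10 (GRCm38); for settings, gene annotation and strand: not given in the sources used here. The deposited values are a length-normalised signal per gene, and whether FPKM or TPM is not given in the sources used here. No count test was run. Ratios between libraries were log2((x + 1)/(y + 1)), and levels relative to the eIF3 transcripts of the same library were log2(x/y) with no pseudocount; the pseudocount of 1 shrinks ratios of scarce genes. All ratios were computed over the whole table, and genes with at least 5 in the higher library were counted past 2-fold, with 1.5-fold and 1.25-fold as lesser limits. With 1 library per genotype there is no p-value.

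The value of 1 fragment was estimated from the spacing of low values of genes between 2500 and 4500 nt, with 250 nt subtracted for fragment length. The mean distance of values from whole multiples was 0.120 to 0.133 steps, where 0.25 means no spacing, so fragment numbers are approximate; RSEM can also split fragments between genes. Counting SDs follow from them. The rule for calls and the estimate of the spacing were tested on simulated data. Transcript lengths, GC content and 3′ UTRs were from GENCODE M21, which matched 98.5% of the genes by gene identifier, and copies were searched with BLAST 2.17.0. Python 3.11.15, pandas 2.3.3, numpy 2.4.6 and scipy 1.17.1 were used.

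Named were all members, the other eIF3 subunits, the HuR paralogs, Piwil1 and the genes nearest in pattern. Of each other list, up to 2 genes each way past the rule or its 2 most abundant in wild type were named. The members and lists were chosen with earlier results of these data known. Pseudocounts of 0.1 and 5, 4 rescalings, removal of the GC and length trend, other minimum values and other limits of size were tried as alternatives. Protein sequences were not used here.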

Additional observations from a re-analysis of the deposited data

How the results depend on the processing

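Each genotype had 1 library, so none could be left out, and counting error is the sole error available. No paired analysis was possible because each genotype had 1 library. The count of members past 2-fold was 0 in each comparison under all pseudocounts, rescalings, corrections and minimum values tried, and 0 at 1.5-fold. At 1.25-fold, chosen after seeing the data, it was 3 in MiwiΔIns, 0 in MiwiR371W and 1 between the mutants. The median log2 ratio of the members stayed near 0 but moved by more than counting error. With libraries scaled to the same sum it was -0.117 in MiwiΔIns, 0.0020 in MiwiR371W and 0.0296 between the mutants; the median of all genes was then -0.07, 0.07 and 0.15, so scaling moved members and background alike. With the same median it was -0.0597 in MiwiΔIns. With the same upper quartile the 3 medians were -0.0487, 0.0361 and -0.0039, and with mitochondrially encoded genes and the top 50 left out -0.0861, 0.0197 and 0.0164. Removing the GC and length trend gave 0.0210 in MiwiΔIns and -0.0141 between the mutants, and over all 14 eIF3 subunits without Elavl1 it was 0.0090 between the mutants. For these moves the cause was not tested beyond the construction of each scaling. Across the 7 alternatives to the values, the sign held for 7 of 10 members in MiwiΔIns and 5 of 10 in each of the other comparisons. Depth limits Elavl2, Elavl3 and Eif3j2 most, with between 5 and 20 fragments in each library.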

Other observations

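The AU-rich pentamer of the HuR-bound element was also counted over all measured genes with an annotated 3′ UTR that reached 5 in the higher library. In MiwiΔIns against wild type the median log2 ratio was 0.00 over 2767 genes with no pentamer, 0.02 over 2283 genes with 1 to 2, 0.04 over 1309 genes with 3 to 5 and 0.07 over 1096 genes with 6 or more. In MiwiR371W against the same wild-type library these medians were -0.03, 0.06, 0.10 and 0.11. Genes with more pentamers were also poorer in GC, with a median of 53.5% in the class with none and 44.5% in the class with most in both comparisons. Removing the GC and length trend gave medians of 0.05, 0.03, 0.02 and 0.02 in MiwiΔIns and 0.02, 0.06, 0.05 and 0.01 in MiwiR371W, which were no longer in the order of the classes. Each class spread far wider than these steps: the middle 50% of genes with 6 or more pentamers ran from -0.09 to 0.26 in MiwiΔIns and from -0.16 to 0.33 in MiwiR371W.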
